A study of Mus musculus with 6 samples.

Results

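Ubiquitin ligases and ligase adaptors that are linked to anergy and activation of T cells were followed in the transcriptome of regulatory T cells (Treg). The set comprised 9 genes, Rnf125, Rnf128, Cblb, Cbl, Itch, Ndfip1, Peli1, Nedd4l and Stub1, taken by symbol from the 29199 genes of the table, and all 9 passed the filter on low counts. Rnf125 had been noted for a lower level in one of the groups compared, so its contrast is given as a description with no test. The other 8 members were listed for their role in T cells, with earlier results of these data known.

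Recipients were C57BL/6 mice that were lethally irradiated and grafted with C57BL/6 and B6D2F1 bone marrow. They also received WT Treg from donors of the B6 Foxp3-Thy1.1 strain, expanded in culture with anti-CD3/CD28 beads, IL-2 at 500 IU/mL and TGFb1 at 0.1 ng/mL, together with naive conventional CD4 T cells (Tconv). The groups differed in these Tconv, which were either WT or deficient for HP1a, a heterochromatin protein, and the question was whether exposure to one or the other changed the transcriptome of the Treg. Treg were sorted from the spleen 3 weeks after the graft, and 3 libraries of Treg with WT Tconv were compared with 3 of Treg with HP1a KO Tconv. All Treg were WT in both groups, and the HP1a deletion, obtained by crossing a floxed allele with a CMV-cre line that deletes in all tissues, was carried by the Tconv. Nothing in the labels says whether a library came from 1 mouse or from pooled mice, or that replicates were separate experiments, so p-values measure the spread between these libraries.

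Ubiquitin ligases attach ubiquitin to chosen substrate proteins, which marks them for degradation or changes their signalling. In T cells, Cbl-b, Itch and GRAIL, the product of Rnf128, dampen signalling from the T cell receptor and are known as factors of anergy, the state in which a T cell that was stimulated without costimulation no longer responds. In Treg, Itch and its adaptor Ndfip1 restrain helper cytokines, and the chaperone-linked ligase encoded by Stub1 can target Foxp3.

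Total counts ranged from 87421755 to 119078882 per library. The 6 Treg markers examined (Foxp3, Il2ra, Ctla4, Ikzf2, Cd4 and Cd3e) were all detected and summed to 3802 to 4577 CPM, counts per 1000000 counts of the library. Sums of markers use these plain totals, and CPM of single genes and of the members use totals with TMM scaling. The 3 B cell markers summed to at most 6.88 CPM, the 2 CD8 T cell markers to at most 8.85 CPM and the 2 NK cell markers to at most 5.46 CPM. Replicate 3 of Treg with WT Tconv stood apart in markers of other cells. The 5 red cell genes reached 5341 CPM, against 365 to 678 CPM in the other libraries, the 6 neutrophil genes 1535 CPM, against 36.0 to 196 CPM, and the 4 genes of macrophages or monocytes 176 CPM, against 12.3 to 46.6 CPM. Values without that library are given below for every member. By plain totals, replicate 2 of Treg with HP1a KO Tconv was lowest in Foxp3, Il2ra and Cd3e, at 158, 124 and 151 CPM. The other libraries held 200 to 254, 159 to 201 and 185 to 221 CPM. Replicate 2 was also lowest in Cd4, but not in Ikzf2 or Ctla4. Against the other 2 libraries of its group, chi-square values of its counts were 140 and 174 per degree of freedom. Between those 2 the value was 29.0. These were bulk libraries, in which fewer cells expressing a gene and less RNA of it per cell cannot be told apart.

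The promoters of Cblb and of its paralogue Cbl, which encode closely related ligases, are shown first. They were picked because the groups overlapped for Cbl and not for Cblb. Groups did not overlap for 23% of all genes tested, 11.6% lower, and neither Cblb nor Cbl passed the test given below. Whether the promoter sequences bear on the levels was not tested. Each line is the 250 bases before the start of the canonical transcript, in the GRCm39 assembly, 5′ to 3′ on the strand of the gene. The Cblb window lies at chr16:51851338-51851587 on the plus strand and the Cbl window at chr9:44145563-44145812 on the minus strand. Capitals in Cblb mark a match to GGGA, any 4 bases and CC, a loose pattern of NF-kB sites that leaves 4 bases free. In Cbl they mark matches to TGGAAA, the core bound by NFAT, on the reverse strand. A match is not evidence of a bound site, and binding was not measured.
Cblb: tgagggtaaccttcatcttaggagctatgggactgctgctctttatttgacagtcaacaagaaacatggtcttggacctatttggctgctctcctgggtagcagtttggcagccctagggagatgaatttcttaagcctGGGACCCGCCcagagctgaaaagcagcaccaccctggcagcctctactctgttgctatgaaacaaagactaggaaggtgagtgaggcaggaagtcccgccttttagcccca
Cbl: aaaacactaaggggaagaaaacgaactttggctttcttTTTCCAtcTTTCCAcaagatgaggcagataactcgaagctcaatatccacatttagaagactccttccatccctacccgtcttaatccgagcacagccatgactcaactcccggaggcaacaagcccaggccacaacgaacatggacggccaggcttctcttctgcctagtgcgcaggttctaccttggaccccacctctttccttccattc
The match in Cblb spans 111 to 102 bases before the start, and the matches in Cbl span 212 to 207 and 204 to 199 bases before it. Of the 9 members, 3 (Rnf125, Rnf128 and Cblb) held the NF-kB pattern on either strand, and so did 20.0% of the 13068 promoters of protein-coding genes tested. TGGAAA was in 1 member, Cbl, and in 17.3% of all promoters. The EGR motif GCGTGGGCG was in 0 members and in 0.742% of promoters, and its variant GCGGGGGCG in Ndfip1 alone among the members and in 3.05% of promoters. The 4 motifs were matched on both strands and do not contain one another. The Cblb window held 2 CG dinucleotides, the fewest of the 9, against a median of 12 over all promoters, and that of Cbl held 8.

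Levels differed widely among the members. Per length of the canonical transcript (RPKM), Ndfip1 was the most abundant, at 194 RPKM ± 12.2 (SD, n = 6), followed by Peli1 at 68.2 RPKM ± 7.54 (SD, n = 6). Cblb, Stub1, Itch and Rnf125 followed at 22.8, 22.5, 20.4 and 18.0 RPKM, each with a range over the 6 libraries that overlapped that of the next. Cbl was at 14.4 RPKM ± 1.04 (SD, n = 6). Rnf128 and Nedd4l, at 1.93 RPKM ± 0.245 and 0.795 RPKM ± 0.100 (SD, n = 6), were far below the others in every library.

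The middle of this order depended on the length used. Divided by all exonic bases of the gene instead, Ndfip1 (41.5 RPKM), Peli1 (26.4 RPKM), Rnf128 (1.51 RPKM) and Nedd4l (0.295 RPKM) kept their places. Rnf125, Stub1, Cblb, Cbl and Itch then came in this order, from 17.3 to 9.58 RPKM. Rnf128 and Nedd4l rested on 410 to 725 and 536 to 838 counts per library, and Ndfip1 on 29684 to 39110.

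**Figure D1:**
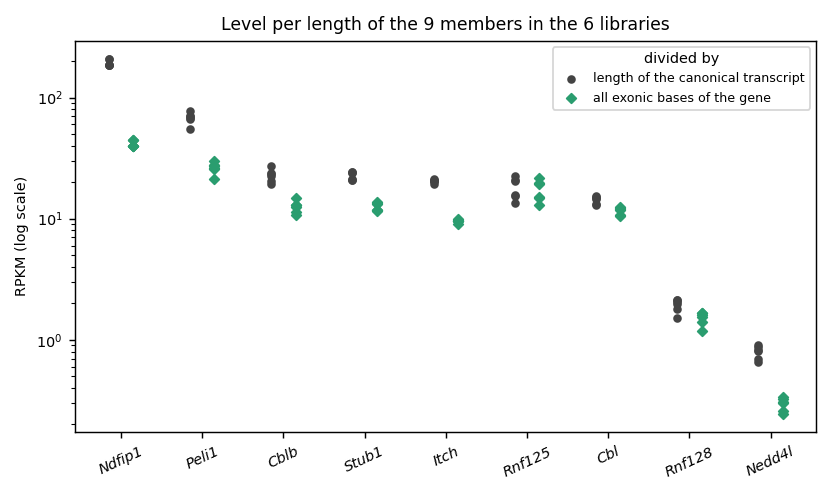
Level per length (RPKM, log scale) of the 9 members in the 6 libraries, 1 point per library. Circles divide by the length of the canonical transcript and diamonds by all exonic bases, and under both Ndfip1 and Peli1 are highest and Rnf128 and Nedd4l lowest, while the 5 genes between them change places.

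Rnf125 encodes a membrane-anchored RING ligase, also called TRAC-1, that takes part in T cell activation and targets the RNA sensor RIG-I. The gene (ENSMUSG00000033107) lies on chromosome 18, from 21077682 to 21120416, plus strand. It stood at 105, 114 and 103 CPM in replicates 1 to 3 of Treg with WT Tconv and at 78.0, 79.7 and 68.0 CPM in replicates 1 to 3 of Treg with HP1a KO Tconv. All 3 libraries with HP1a KO Tconv were below all 3 with WT Tconv, with no overlap. The means were 107.4 CPM ± 5.95 (SD, n = 3) and 75.3 CPM ± 6.33 (SD, n = 3), and the edgeR log2 fold change, HP1a KO over WT Tconv, was -0.51, a percent change of -30.0. Without the library that stood apart it was -0.54, and it stayed between -0.56 and -0.44 over 22 alternatives. The gap between the groups is what brought Rnf125 into the set, and nothing is read from it. Rnf125 shares a run of 123 identical bases with the processed pseudogene Gm2996, which had 4 to 25 counts per library against 6004 to 12065 for Rnf125. Runs of at least 100 bases were shared with other genes by Rnf125 (2 genes), Peli1 (10), Itch (6), Cbl (5) and Ndfip1 (1), and by no other member. Those of the last 4 reached at most 117 bases, and their effect on counts was not tested.

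Of the other 8 members, 0 had a Benjamini-Hochberg adjusted p-value under 0.05 over all genes with the quasi-likelihood test of edgeR, which called 0 of 18321 genes (0%). Without adjustment, p was under 0.05 for 2 of them, Cblb (lower) and Stub1 (higher), against 14.5% of all genes, 7.52% lower and 6.98% higher. DESeq2 called 0 of the 8, where it called 4.35% of the 12097 genes to which it gave an adjusted p-value, and limma-voom called 0. The groups did not overlap for 2 of the 8, Cblb (lower) and Stub1 (higher), against 23% of all genes, 11.6% lower and 11.5% higher. The median log2 fold change of the 8 was -0.06, against -0.01 over all genes tested, and the median size of the change, regardless of sign, was 0.139 on that scale, against 0.169. With 8 genes, these counts lie near the background shares. The members were chosen with earlier results of these data known, so the counts describe them and do not test the set.

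**Figure D2:**
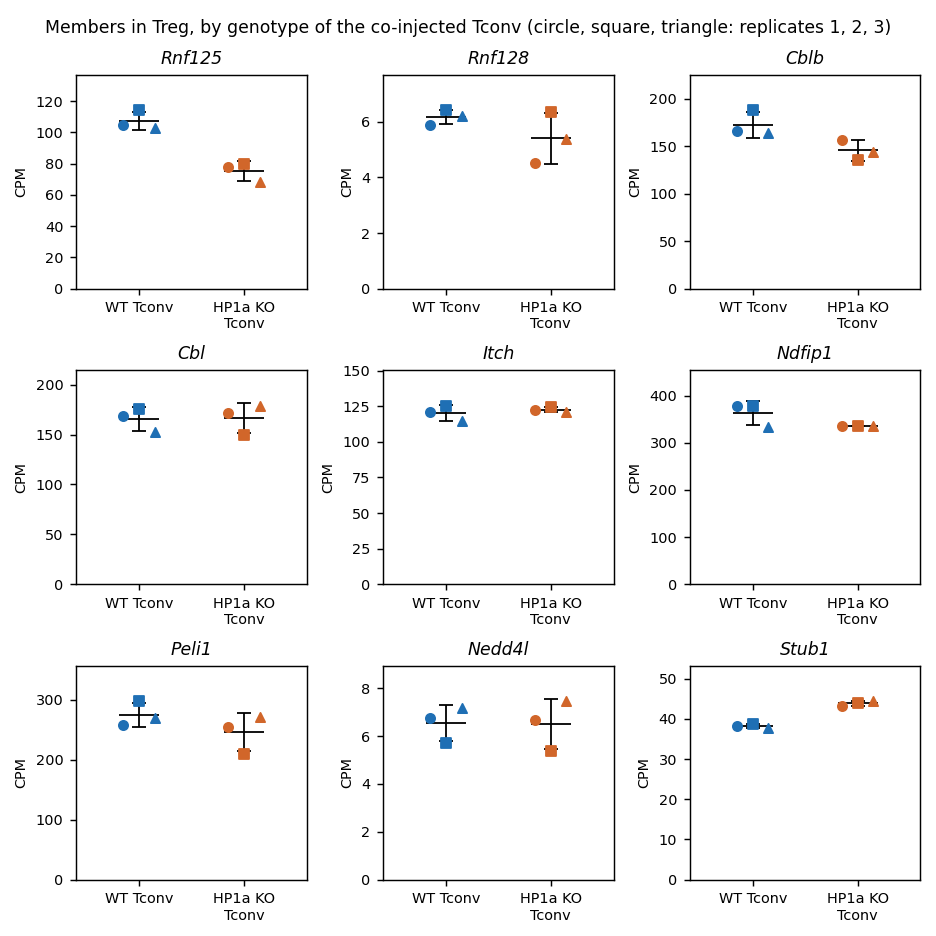
CPM of each member in the 6 libraries, by genotype of the co-injected Tconv, with the vertical axes starting at 0. Circles, squares and triangles are replicates 1, 2 and 3, long bars are means and whiskers are SD (n = 3). The groups are separated for Cblb, Stub1 and Rnf125, which was chosen for this gap, and overlap for the other 6 genes. Over all genes tested, groups do not overlap for 23%.

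Among the classical ligases of anergy, Rnf128 (ENSMUSG00000031438, chromosome X, 138463952 to 138574139, plus strand) encodes GRAIL, a transmembrane RING ligase of the endosome. Rnf128 stood at 5.90, 6.42 and 6.19 CPM with WT Tconv and at 4.51, 6.35 and 5.38 CPM with HP1a KO Tconv. Replicate 2 with HP1a KO Tconv lay within the range of the WT group and the other 2 libraries below it. Its log2 fold change was -0.19 (SE 0.151, 95% interval -0.54 to 0.16), with an adjusted p of 0.601 by edgeR and 0.586 by DESeq2. Single libraries moved it, to -0.06 without replicate 1 and to -0.32 without replicate 2 of Treg with HP1a KO Tconv.

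Cblb (ENSMUSG00000022637, chromosome 16, 51851588 to 52028729, plus strand) encodes Cbl-b, which makes T cell activation dependent on CD28. Cblb stood at 166, 188 and 164 CPM with WT Tconv and at 157, 136 and 144 CPM with HP1a KO Tconv. Each library with HP1a KO Tconv was below each with WT Tconv, the closest being replicate 1 of the former and replicate 3 of the latter. The means were 173 CPM ± 13.4 with WT Tconv and 146 CPM ± 10.7 with HP1a KO Tconv (SD, n = 3), a percent change of -15.6 (95% interval -26.1 to -3.66). Its log2 fold change of -0.24 (SE 0.0833) had an unadjusted p of 0.0181, an adjusted p of 0.255 by edgeR and one of 0.134 by DESeq2. It did not pass in any of the 22 alternatives, over which the log2 fold change ranged from -0.31 to -0.17 and the adjusted p-value from 0.0603 to 0.504 (edgeR, limma-voom and DESeq2).

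Cbl (ENSMUSG00000034342, chromosome 9, 44054273 to 44145562, minus strand) encodes the related c-Cbl, which acts on receptor complexes at the membrane. Cbl stood at 169, 176 and 153 CPM with WT Tconv and at 171, 150.0 and 179 CPM with HP1a KO Tconv. The groups overlapped throughout. For Cbl the log2 fold change was 0.01, with a 95% interval of -0.19 to 0.21 and an adjusted p of 0.978 by edgeR and 0.989 by DESeq2, and its sign turned in 5 of 22 alternatives. Of the pair whose promoters are printed above, neither passed the test, and the difference between the paralogues was not tested.

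The HECT ligases comprise Itch and Nedd4l, and Ndfip1 is the membrane adaptor that binds and activates ligases of this family. Itch (ENSMUSG00000027598, chromosome 2, 154975388 to 155069532, plus strand), which targets JunB and other signalling proteins, stood at 121, 125 and 114 CPM with WT Tconv and at 122, 124 and 121 CPM with HP1a KO Tconv. The 3 libraries with HP1a KO Tconv lay within the range of the WT group. Its log2 fold change was 0.03, and the sign turned in 2 of 22 alternatives, with an adjusted p of 0.868 by edgeR and 0.911 by DESeq2. The 95% interval of its percent change ran from -7.78 to 12.6.

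Ndfip1 (ENSMUSG00000024425, chromosome 18, 38543449 to 38599910, plus strand) stood at 378, 378 and 334 CPM with WT Tconv and at 336, 335 and 336 CPM with HP1a KO Tconv. The 3 libraries with HP1a KO Tconv were nearly equal and lay just above replicate 3 of Treg with WT Tconv, the library that stood apart in other cell markers. With that library the log2 fold change was -0.11 (95% interval -0.28 to 0.05), with an adjusted p of 0.510 by edgeR and 0.506 by DESeq2. Without it the log2 fold change was -0.17 with an adjusted p of 0.439 by edgeR, and it was -0.07 without replicate 1 and -0.07 without replicate 2 of that group.

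Nedd4l (ENSMUSG00000024589, chromosome 18, 65020724 to 65350899, plus strand), known for the removal of sodium channels from the membrane and for the turnover of Smad proteins, stood at 6.77, 5.69 and 7.16 CPM with WT Tconv and at 6.69, 5.37 and 7.45 CPM with HP1a KO Tconv. The range with HP1a KO Tconv enclosed that with WT Tconv. For Nedd4l the log2 fold change was -0.01, and its sign turned in 8 of 22 alternatives, including scaling by the upper quartile and by total counts only. The 95% interval, -0.37 to 0.36, was wide, and the adjusted p was 0.984 by edgeR and 0.976 by DESeq2. The antisense gene A330084C13Rik, with 9 to 18 counts per library, overlaps 3.02% of its exonic bases.

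Peli1 (ENSMUSG00000020134, chromosome 11, 21041243 to 21100582, plus strand) encodes Pellino1, which marks c-Rel for degradation in T cells and restrains their activation. Peli1 stood at 258, 298 and 270.1 CPM with WT Tconv and at 255, 210.2 and 272 CPM with HP1a KO Tconv. Replicate 2 with HP1a KO Tconv was the lowest library and the groups overlapped. Its log2 fold change was -0.16 (SE 0.105), and the adjusted p was 0.519 by edgeR and 0.455 by DESeq2. Without replicate 2 of Treg with HP1a KO Tconv it was -0.06, and it was -0.24 without their replicate 3.

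Stub1 (ENSMUSG00000039615, chromosome 17, 26049462 to 26052978, minus strand) encodes CHIP, a U-box ligase that works with Hsp70 and Hsp90. Stub1 stood at 38.2, 38.6 and 37.8 CPM with WT Tconv and at 43.2, 44.0 and 44.4 CPM with HP1a KO Tconv. Each library with HP1a KO Tconv was above each with WT Tconv, and the spread within groups was small, at 0.416 CPM (SD, n = 3) around 38.2 CPM and 0.597 CPM (SD, n = 3) around 43.8 CPM. For Stub1 the log2 fold change was 0.20 (SE 0.0616), a percent change of 14.8 (95% interval 4.11 to 26.6), with an unadjusted p of 0.0115 and an adjusted p of 0.232 by edgeR and 0.183 by DESeq2. Over the alternatives the log2 fold change ranged from 0.19 to 0.24, and the DESeq2 adjusted p-value fell to 0.0285 without replicate 2 of Treg with HP1a KO Tconv, the one setting in which Stub1 was called.

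The counts of Stub1 are uncertain because Jmjd8 (ENSMUSG00000025736) lies on the opposite strand and shares 53.0% of the exonic bases of Stub1. The noncoding gene Gm56915, also on the opposite strand, shares 40.6% of them and is not among the 29199 genes counted. The libraries were made with a stranded kit, but the strand setting of the counting is not given in the sources used here. Jmjd8, a jumonji-domain protein of the endoplasmic reticulum, stood at 14.4, 13.2 and 13.2 CPM with WT Tconv and at 16.6, 15.8 and 16.4 CPM with HP1a KO Tconv, also with no overlap. Its log2 fold change was 0.26 (SE 0.0867), with an adjusted p of 0.249 by edgeR. Whether reads of one gene were counted for the other was not tested.

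**Figure D3:**
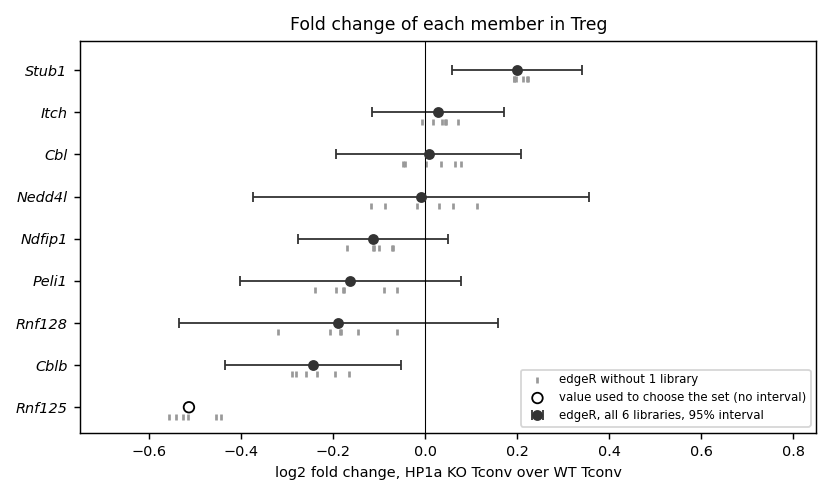
edgeR log2 fold change of each member, Treg with HP1a KO Tconv over Treg with WT Tconv, with 95% intervals (3 libraries per group). The open circle is Rnf125, which was chosen on this value and has no interval, and grey ticks are fits without 1 library, which cross 0 for Itch, Cbl and Nedd4l.

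Without replicate 3 of the WT Tconv group, the fit gave log2 fold changes of -0.19 for Rnf128, -0.28 for Cblb, -0.05 for Cbl, -0.01 for Itch, -0.18 for Peli1, 0.06 for Nedd4l and 0.19 for Stub1. Those of Cblb and Stub1 were thus as large or nearly as large as with that library, and 0 of the 8 passed in edgeR or DESeq2. Summed over the 8 members other than Rnf125, the libraries held 1142, 1216 and 1086 CPM with WT Tconv and 1096, 1012 and 1109 CPM with HP1a KO Tconv. The groups overlapped in this sum.

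The surroundings of Rnf125 on chromosome 18 were then examined. Rnf138 (ENSMUSG00000024317, 21134295 to 21161347, plus strand), which starts 13878 bases after the end of Rnf125 on the same strand, encodes a RING ligase of the same small family and acts in DNA repair. Rnf138 stood at 83.6, 90.6 and 87.4 CPM with WT Tconv and at 67.1, 66.6 and 57.3 CPM with HP1a KO Tconv. As for its neighbour, all libraries with HP1a KO Tconv were below those with WT Tconv. For Rnf138 the log2 fold change was -0.45 (SE 0.0805), with an adjusted p of 0.209 by edgeR, which did not pass, and of 0.00126 by DESeq2, which did.

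The call of Rnf138 by DESeq2 held in 6 of 6 fits that each left out 1 library, with adjusted p-values up to 0.0219, and edgeR without a filter beyond 1 count gave 0.0370. Rnf138 and Rnf125 share a run of identical bases of at most 61 bases. The ratio of Rnf138 to Rnf125 in CPM lay between 0.793 and 0.860 in the 6 libraries, with overlapping groups. On the other side, Trappc8 (ENSMUSG00000033382), a subunit of a vesicle tethering complex that lies 48182 bases away on the minus strand, had overlapping groups. Trappc8 had a mean of 131 CPM ± 4.86 with WT Tconv and 129 CPM ± 6.12 with HP1a KO Tconv (SD, n = 3), with a log2 fold change of -0.03 and an adjusted p of 0.884 by edgeR.

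Among 10209 genes with a mean of at least 5 CPM, Rnf138 was also the gene whose pattern was most like that of Rnf125. Likeness was measured as the root mean square difference over the 6 libraries between log2 CPM values centred on the mean of each gene. It was 0.0447 for Rnf138, against a median of 0.306 over all genes ranked. Gm45853, Gm49204, Riok1, a kinase of ribosome maturation, and Tent5a, a poly(A) polymerase, came next, at 0.0469, 0.0473, 0.0522 and 0.0566. Genes near the top share the difference between groups by construction, since this difference makes up most of the pattern of Rnf125. Among the other members, Cblb was the nearest, at rank 530, and Stub1 the farthest, at rank 7990.

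**Figure D4:**
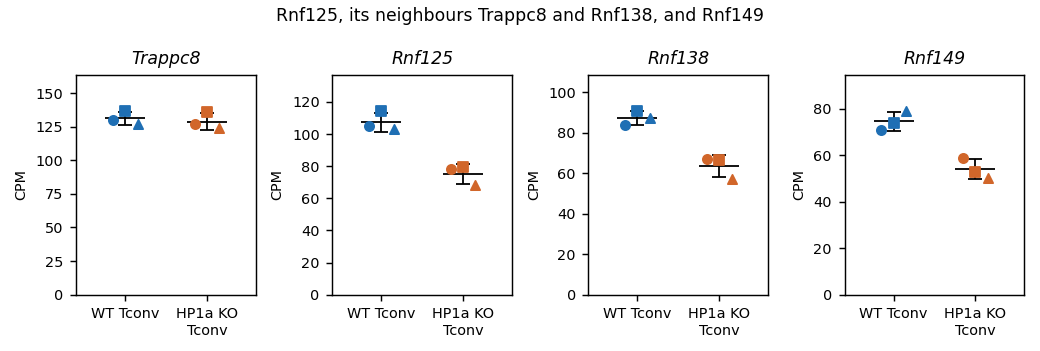
CPM of Rnf125, its neighbours Trappc8 and Rnf138, and Rnf149 in the 6 libraries, with the vertical axes starting at 0. Markers are replicates 1, 2 and 3, long bars are means and whiskers are SD (n = 3). The groups are separated for Rnf125, Rnf138 and Rnf149, against 23% of all genes tested, and overlap for Trappc8.

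Companion genes of the ubiquitin system were taken from 8 lists, which held 98 genes beside the members, and 92 of these were tested. By edgeR 0 of the 92 had an adjusted p-value under 0.05, against 0% of all genes, and 20 had a p under 0.05 before adjustment, 4 higher and 16 lower, against 14.5% of all genes, 6.98% higher and 7.52% lower. DESeq2 called 7, of which 1 was higher and 6 were lower with HP1a KO Tconv. It called 4.35% of the genes it adjusted, 1.31% higher and 3.03% lower. Of the 92, Hecw2, Peli3 and Marchf1 got no adjusted p-value from DESeq2, so its share has a different base. Groups did not overlap for 32 of the 92 (34.8%), 9 higher and 23 lower, against 23% of all genes, 11.5% higher and 11.6% lower. The median log2 fold change was -0.04, against -0.01 over all genes. The lists were chosen with earlier results of these data known, so these counts describe the lists and do not test them.

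The relatives of Rnf125 and Rnf128 comprised 7 tested genes beside the members. Groups did not overlap for 5 of these, 2 higher and 3 lower, against 23% of all genes, 11.5% higher and 11.6% lower. DESeq2 called 2, Rnf138 and Rnf149, where it called 4.35% of the genes it adjusted. Rnf149 (ENSMUSG00000048234, chromosome 1, 39590202 to 39616503, minus strand), like Rnf128 a transmembrane ligase with a protease-associated domain, stood at 71.0, 74.1 and 79.0 CPM with WT Tconv and at 58.8, 52.7 and 50.3 CPM with HP1a KO Tconv. All 3 libraries with HP1a KO Tconv were lower. This gave a log2 fold change of -0.47 (SE 0.0808), and the adjusted p was 0.209 by edgeR and 0.000832 by DESeq2, which called it in 6 of 6 fits without 1 library. Rnf149 shares a run of 882 identical bases with the noncoding gene Gm15832, which had 1999 to 2673 counts with WT Tconv and 844 to 1309 with HP1a KO Tconv, so the assignment of reads between them is uncertain. Rnf166, of the family of Rnf125, was at 45.1 CPM ± 3.71 with WT and 55.2 CPM ± 3.25 with HP1a KO Tconv (SD, n = 3), with a log2 fold change of 0.29 and an adjusted p of 0.222 by edgeR and 0.0851 by DESeq2.

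In the NEDD4 family 0 of 7 tested genes were called and 0 had groups that did not overlap, against 23% of all genes for the latter. Nedd4 itself had a log2 fold change of -0.90 that rested on replicate 3 of Treg with WT Tconv, which had 26.3 CPM against 6.03 to 9.66 CPM in the other 5 libraries. That library also had the highest sums of red cell, neutrophil and macrophage or monocyte genes, whose part in this value was not tested, and without it the log2 fold change of Nedd4 was -0.10. Wwp2, at the other end of the family, was at 0.03 on this scale, with an adjusted p of 0.830 by edgeR, and between 0.02 and 0.05 without 1 library. Of 5 tested genes of the CBL family and its partners, 0 were called. Ubash3a, a phosphatase-like partner of Cbl proteins that restrains T cell receptor signalling, stood at 200.03 CPM ± 12.1 and 240.1 CPM ± 17.8 (SD, n = 3) with no overlap, a log2 fold change of 0.26 and an adjusted p of 0.230 by edgeR and 0.0927 by DESeq2. At the low end, the log2 fold change of Cbll1 was -0.42, with an adjusted p of 0.534 by edgeR, and -0.16 without replicate 2 of Treg with HP1a KO Tconv, which had 9.97 CPM against 18.7 to 23.9 CPM in the others.

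Of 7 Pellino and TRAF ligases tested, DESeq2 called 2, in opposite directions, where it called 4.35% of the genes it adjusted. Traf2, which links TNF receptors to NF-kB, stood at 87.4, 76.8 and 81.2 CPM with WT Tconv and at 102, 116 and 99.6 CPM with HP1a KO Tconv. The fitted log2 fold change was 0.37 (SE 0.0843), and the adjusted p was 0.209 by edgeR and 0.0185 by DESeq2. Traf6, which acts downstream of Toll-like and IL-1 receptors, stood at 250.5, 268 and 271 CPM with WT Tconv and at 224, 214 and 182 CPM with HP1a KO Tconv. For Traf6 the log2 fold change was -0.35 (SE 0.0880), and the adjusted p was 0.209 by edgeR and 0.0296 by DESeq2. Neither overlapped between groups, but DESeq2 called Traf2 in 4 and Traf6 in 3 of the 6 fits without 1 library, and neither without replicate 2 or without replicate 3 of Treg with WT Tconv.

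Among 14 genes of ubiquitin and its E1 and E2 enzymes, DESeq2 called 1, where it called 4.35% of the genes it adjusted. Ube2d3, an E2 enzyme that works with many RING ligases, stood at 563, 602 and 574 CPM with WT Tconv and at 495, 491 and 471 CPM with HP1a KO Tconv. Its log2 difference was -0.26 (SE 0.0652), and the adjusted p was 0.209 by edgeR and 0.0395 by DESeq2, which called it in 4 of 6 fits without 1 library. Ube2k, at the low end of the list, had a log2 fold change of -0.35 and an adjusted p of 0.484 by edgeR, and Uba1, the main E1 enzyme, one of 0.14 with 0.380. Without replicate 2 of Treg with HP1a KO Tconv, the lowest library at 21.5 CPM against 35.2 to 41.1 CPM, that of Ube2k was -0.14. Of the 17 other ligases and the 11 deubiquitinases tested, 0 were called by either tool. Among genes with a mean of at least 5 CPM, the ends of the former were Marchf5, with a log2 fold change of -0.39, and Dtx1, whose product Deltex1 is also tied to anergy. Those of the latter were Tnfaip3, which encodes the NF-kB inhibitor A20, at -0.35 and Usp18 at 0.14, with an adjusted p of 0.291 and 0.511 by edgeR, and single libraries moved them, to -0.22 for Tnfaip3 without replicate 3 and to 0.07 for Usp18 without replicate 2 of Treg with HP1a KO Tconv. Dtx1 stood at 140 CPM ± 22.8 and 189 CPM ± 41.1 (SD, n = 3), the log2 fold change being 0.43 with an adjusted p of 0.354 by edgeR and 0.0822 by DESeq2. It was 0.24 without replicate 3 of Treg with HP1a KO Tconv, which had 236 CPM against 163 and 167 CPM in their other libraries. Marchf5 had groups that did not overlap, with an adjusted p of 0.230 by edgeR and 0.0535 by DESeq2. DESeq2 called Marchf5 in 2 of 6 fits without 1 library. Without replicate 3 of Treg with WT Tconv its log2 fold change was -0.28.

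Substrates and partners of the members numbered 24, of which DESeq2 called 2, where it called 4.35% of the genes it adjusted. Rel, which encodes c-Rel, a target of Peli1, stood at 165, 159 and 160.4 CPM with WT Tconv and at 112, 83.5 and 84.9 CPM with HP1a KO Tconv. The groups were far apart relative to their spread. For Rel the log2 fold change was -0.79 (SE 0.115), and the adjusted p was 0.209 by edgeR and 7.66e-07 by DESeq2. The adjusted 0.209 of edgeR was shared by genes whose unadjusted p in that test differed, such as 0.00012 for Rel and 0.0042 for Ube2d3. Smad7, an inhibitor of TGF-beta signalling that recruits ligases of the NEDD4 family, stood at 269, 344 and 375 CPM with WT Tconv and at 238, 245 and 184 CPM with HP1a KO Tconv. For Smad7 the log2 fold change was -0.57, with an adjusted p of 0.225 by edgeR and 0.00714 by DESeq2. DESeq2 called Smad7 in 3 of 6 fits without 1 library. Foxp3, a target of Stub1, stood between 154 and 252 CPM with overlapping groups.

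Hspa1b, which encodes an Hsp70 chaperone and partner of Stub1, had the lowest log2 fold change of the list, -2.16, with an adjusted p of 0.467 by edgeR. Replicate 3 of Treg with WT Tconv, the library with the highest red cell and neutrophil genes, had 50.4 CPM of Hspa1b against 2.09 to 10.2 CPM in the others, and without it the log2 fold change was -0.64. Hspa1b is nearly identical to Hspa1a, so its counts are uncertain. At the other end, the log2 fold change of Jun, a target of Itch, was 0.27, with an adjusted p of 0.543 by edgeR, and it ranged from 0.15 without replicate 2 of Treg with HP1a KO Tconv to 0.42 without replicate 3 of the WT Tconv group.

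**Figure D5:**
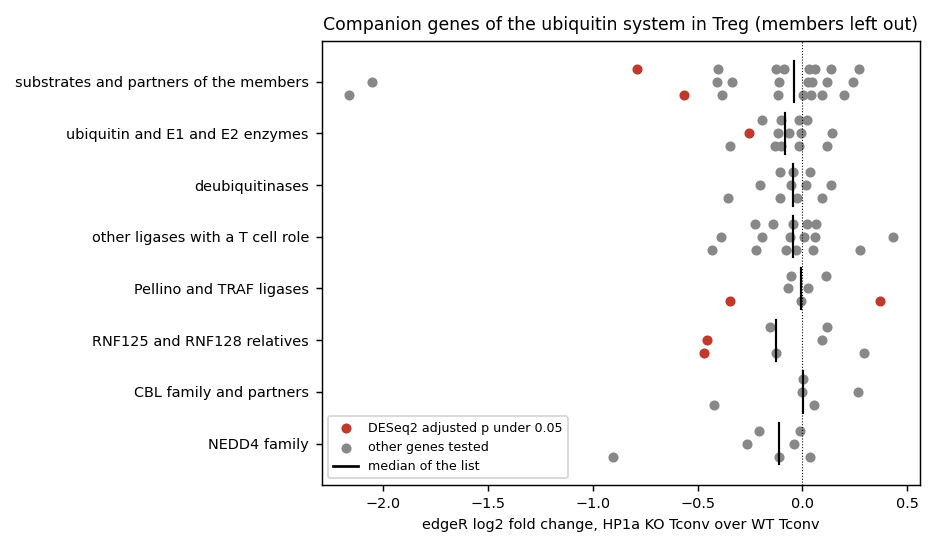
edgeR log2 fold changes (HP1a KO over WT Tconv) of the 92 companion genes tested, by list, 1 point per gene, with the members left out. Black bars are list medians, which lie close to 0, and red points are the 7 genes called by DESeq2, 6 of them lower and Traf2 higher, while 0 were called by edgeR.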

How the data were processed

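Total RNA libraries of sorted Treg, made with a TruSeq Stranded kit, were aligned by the authors to GRCm39 with STAR, and Salmon within an nf-core pipeline gave the deposited estimated counts per gene, which are whole numbers and not normalized. Such counts divide reads that fit several genes by a model. The 9 members, the 8 companion lists, the motifs and the tests were chosen with earlier results of these data known. Genes named were the members and, of each list, the genes called by DESeq2. At a mean of at least 5 CPM, those with the largest and smallest log2 fold change of each list were also named. So were the nearest gene of at least 1 CPM on each side of Rnf125 and the 5 genes most like Rnf125. Of genes overlapping exons of a member, those among the genes counted were named, and others overlap members too. Gm2996 and Gm15832, for shared bases, Gm56915, for its overlap with Stub1, and Foxp3, a target of Stub1, were added after values were seen.

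All genes were tested by quasi-likelihood in edgeR 4.0.16 (R 4.3.3) with robust = TRUE, TMM scaling, the filterByExpr filter (18321 genes) and group as the sole term. p-values were adjusted by Benjamini-Hochberg over all genes, with 0.05 as the threshold. Standard errors were derived from the F statistic. CPM used TMM-scaled totals, except for the sums of markers, which used plain totals, and RPKM divided CPM by length in kilobases. Alternatives were DESeq2 1.42.0 (independent filtering at 0.1), limma-voom (limma 3.58.1), 3 scalings, 2 filters, other edgeR settings, a block for the replicate number, and fits without each single library in edgeR and DESeq2. Positions, lengths and promoters came from GENCODE vM39, which matched 28854 identifiers. Identical bases shared with other genes were searched in the transcripts from windows of 50 bases. In the lists, Rigi was matched by identifier under its older symbol. Of the 6 listed genes not analysed, Hecw1, Cblc, Rnf150 and Usp44 did not pass the filter, and Rnf133 and Rnf148 were not matched. Replicates were not duplicates, since pairs differed with chi-square values of at least 21.3 per degree of freedom. The study used another version of DESeq2 and a threshold on the fold change, which was not applied here. The fits were tested on simulated data. Counting error was not measured separately. It weighs more for genes with few counts, such as Rnf128 and Nedd4l, at 410 to 838 counts per library.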

Additional observations from a re-analysis of the deposited data

How the results depend on the processing

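The count of genes called over all genes, 0 in edgeR, was 526 with DESeq2, 38 without a filter beyond 1 count and 1 with upper quartile scaling. It ranged from 0 to 2 over the edgeR fits without 1 library. In DESeq2 it was 328, 279 and 181 without replicates 1, 2 and 3 of Treg with WT Tconv and 681, 1413 and 332 without those of Treg with HP1a KO Tconv. Members called, 0 in edgeR, numbered 1 with DESeq2 and 1 without the filter, each time Rnf125. In DESeq2 without 1 library they numbered 1 to 2. Rnf125 was chosen on this contrast, so nothing is read from its calls. Of the other members only Stub1 was called, in DESeq2 without replicate 2 of Treg with HP1a KO Tconv. Companion genes called, 0 in edgeR, numbered 7 with DESeq2, 3 without the filter (Rel, Rnf138 and Rnf149), and 0 to 1 in edgeR without 1 library. In DESeq2 they numbered 7, 3 and 3 without replicates 1, 2 and 3 of Treg with WT Tconv and 8, 19 and 6 without those of Treg with HP1a KO Tconv. Same-numbered libraries had correlations of deviations of -0.036, 0.178 and 0.110 over genes, and differently numbered ones -0.214 to 0.121. With 3 libraries per group these values cannot decide whether the replicate numbers pair the libraries. With the replicate number as a block, 1 gene, 0 members and 0 companion genes were called. The log2 fold change of Nedd4l turned to 0.011 with upper quartile scaling and 0.026 with total counts only. Over the edgeR fits without 1 library it lay between -0.12 and 0.11, and it turned in DESeq2 to 0.012 and 0.055 without replicates 1 and 3 of Treg with WT Tconv and to 0.11 without replicate 2 of Treg with HP1a KO Tconv. That of Cbl lay between -0.048 and 0.078 over the edgeR fits and turned in DESeq2 to -0.053 without replicate 3 of the WT Tconv group and to -0.015 and -0.044 without replicates 1 and 3 of Treg with HP1a KO Tconv. That of Itch lay between -0.0068 and 0.071 and turned in DESeq2 to -0.011 without replicate 3 of the WT Tconv group. The other 6 members kept their direction in all 22 alternatives. The cause of these changes was not tested.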
